A study of Rattus norvegicus with 4 samples.

Results

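Collagens are the main structural proteins of the extracellular matrix, and each is a triple helix of chains coded by genes named Col, a type number, the letter a and a chain number. Every gene whose symbol has that form was taken, which gave 42 of the 32623 genes in the deposited counts. They comprised 10 fibrillar genes, 6 type IV genes and 26 genes of other types. Col1a2, Col6a3 and Col21a1 had no row under these symbols and were not analysed here.

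Fibrillar collagens build the rope-like fibrils of fibrous tissue, whereas type IV collagen forms the sheet-like network of basement membranes. In a peripheral nerve, fibroblasts of the sheaths lay down fibrils around axons and fascicles, and each Schwann cell rests on a basement membrane that contains type IV collagen. The other types link fibrils to their surroundings, form fine filaments or short networks, or sit in cell membranes and basement membrane zones.

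The sections held the semilunar ganglion with its root and the first stretch of its branches, from adult male Sprague-Dawley rats labelled as wild type, whose root had been compressed mechanically on 1 side as a model of trigeminal neuralgia (TN). The diseased side of 3 animals was placed on the capture areas TN1, TN2 and TN3, with 1 animal on each. Tissue of 2 animals shared the healthy control (HC) area, taken from the healthy side of TN animals by the series description, whereas the methods speak of sham operation. HC is therefore 1 sample, in which condition, capture area and tissue makeup cannot be told apart.

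Messenger RNA was counted as unique molecular identifiers (UMIs) in spots of the Visium array, each of which can hold several cells. The areas held 1256 to 2013 spots and 23546025 to 41335930 UMIs, with a median of 9487 UMIs per spot in TN1, 30808 in TN2, 14480 in TN3, against 14616 in HC. Mitochondrial genes took 11.6% of UMIs in TN1, 7.81% in TN2, 7.50% in TN3, against 5.90% in HC. Of 3573 distinct spot barcodes, 2337 occurred in more than 1 area, as every array of this design reuses the same barcodes. All 10 sensory neuron markers and all 8 peripheral myelin markers, which define the labelled tissue, were detected in every area. The summed level of 9 connective tissue markers was 1227 CPM (UMIs scaled to a common library total) in TN1, 3330.0 in TN2, 2922 in TN3, against 501.4 in HC, with none of them at 0. That of 8 macrophage markers was 610.0, 1789, 2128 and 316.6 in the same order. Among 8 meningeal markers, Slc6a13 measured 15.9, 88.0, 99.2 and 3.70 CPM and Foxc1 9.60, 62.5, 49.1 and 7.02, and the sum of the list was 1611, 4163, 1852 and 968.5. Connective tissue and macrophage sums and these meningeal genes were higher in TN2 and TN3, as were many collagens below, and their part in the collagen differences was not tested.

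Collagen transcripts made up 0.167% of all UMIs in TN1, 0.519% in TN2, 0.518% in TN3, against 0.179% in HC. TN1 was thus close to HC, and TN2 and TN3 were close to each other and higher. The fibrillar genes summed to 1071 CPM in TN1, 2897 in TN2, 3103 in TN3, against 1269 in HC. The type IV genes summed to 213.7, 319.1, 351.6 and 185.3 CPM in the same order. Genes of other types summed to 384.2, 1972, 1722 and 339.8 CPM, so that this class differed most. Over HC it was 1.13-fold in TN1, 5.80-fold in TN2 and 5.07-fold in TN3, while the fibrillar sum was 0.844-fold, 2.28-fold and 2.44-fold. Blood and bone spots (defined below) numbered 518 in HC and 102 in TN1, and held 24.3% and 2.66% of the fibrillar UMIs there. The spread between TN areas was wide in each class, at 2357 ± 1118 CPM for fibrillar, 294.8 ± 72.1 for type IV and 1359 ± 854 for other types (mean ± SD, n = 3). In sums of this kind, fewer cells of a type and less RNA per cell cannot be told apart.

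A few genes carried nearly all of these transcripts. The 12 collagens with most UMIs held 96.6% of them, and the other 30 are given below by counts and ranges. Col1a1 alone held 26.0% of collagen UMIs in TN1, 28.6% in TN2, 33.1% in TN3, against 44.7% in HC. Col3a1 held 22.6%, 20.6%, 20.1% and 10.5% in the same order, so its share was lowest in HC where that of Col1a1 was highest. Col18a1 held 13.0% in TN2 and 11.3% in TN3, against 3.92% in TN1 and 2.60% in HC. Levels of different genes should be set against each other only loosely, since counts come from the 3′ end of transcripts, are not divided by length, and depend on how well the annotation covers that end.

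**Figure D1:**
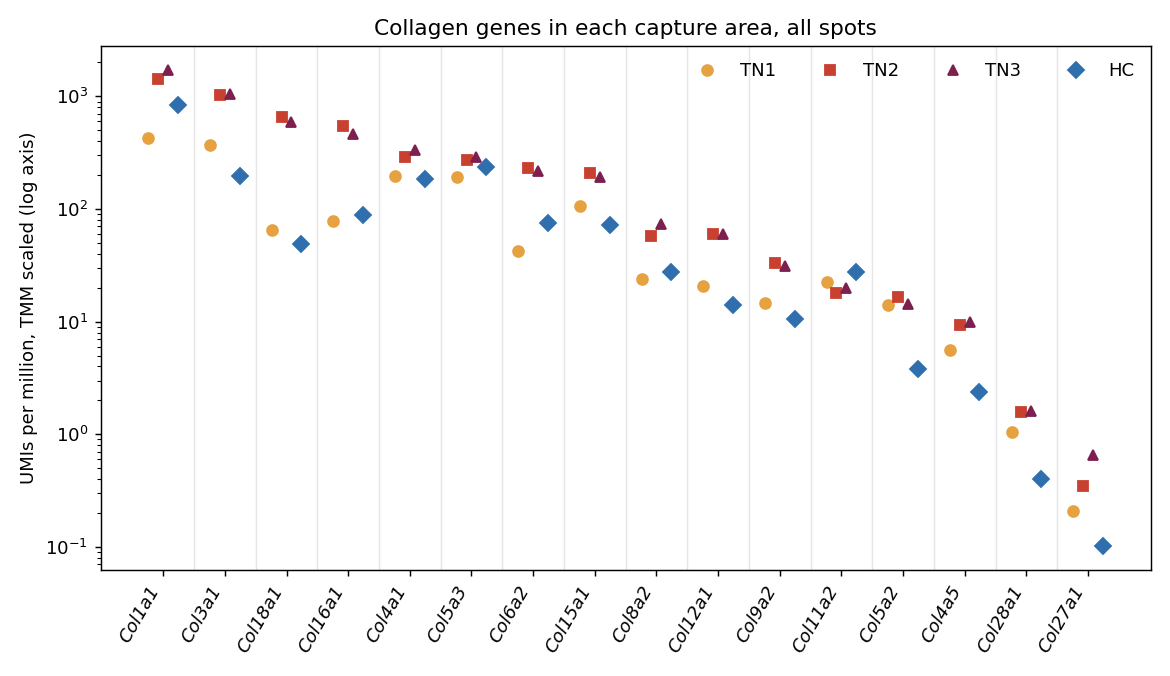
CPM in all spots (log axis, scaled by the trimmed mean of M values) of the 16 collagen genes described one by one, with 1 point for each capture area and no error bar because each point is 1 area. TN2 and TN3 lie together for most genes, TN1 often lies near HC, and Col11a2 is the gene for which all TN points fall below HC.

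Among the fibrillar genes, Col1a1 and Col3a1 stood well above the rest. Col1a1, the main chain of type I collagen in bone, tendon and fibrous sheaths, measured 430.5 CPM in TN1, 1429.7 in TN2, 1723 in TN3, against 836.7 in HC after scaling by the trimmed mean of M values (TMM). HC lay between TN1 and the other TN areas, and the log2 fold change of TN over HC was 0.51 (SE 0.79). Col3a1, which forms the fine reticular fibrils of soft tissue, measured 373.7 CPM in TN1, 1030.3 in TN2, 1045.5 in TN3, against 196.4 in HC. Here every TN area was above HC, TN1 by 1.90-fold, TN2 by 5.25-fold and TN3 by 5.32-fold. The log2 fold change was 2.06 (SE 0.71), with an adjusted p of 0.556 in edgeR's quasi-likelihood test with Benjamini-Hochberg adjustment.

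Type V chains regulate the diameter of fibrils, and Col5a3 is the one known from Schwann cells. It measured 191.3 CPM in TN1, 269.9 in TN2, 290.1 in TN3, against 236.3 in HC, and HC lay inside the range of the TN areas. Col5a2, the second chain of common type V collagen, measured 14.1 CPM in TN1, 16.7 in TN2, 14.4 in TN3, against 3.81 in HC. These TN values lay close together and all more than 3-fold above HC, with a log2 fold change of 1.98 (SE 0.32). It had the smallest p of any collagen (unadjusted 0.00156, adjusted 0.556, edgeR quasi-likelihood test with Benjamini-Hochberg adjustment). DESeq2, run as a second tool, called Col5a2 alone among the collagens, with an adjusted p of 0.00012. Its counts were 335, 671, 461 and 151 UMIs in TN1, TN2, TN3 and HC.

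Col11a2, a chain of the thin fibrils of cartilage, measured 22.3 CPM in TN1, 18.1 in TN2, 19.9 in TN3, against 27.4 in HC. Over all spots it was the only tested collagen with every TN area below HC, and its log2 fold change of -0.45 (SE 0.24) had an adjusted p of 0.570 (edgeR quasi-likelihood test with Benjamini-Hochberg adjustment). With blood and bone spots left out, no tested collagen, Col11a2 included, had every TN area below HC. Col2a1, the main cartilage collagen, was highest in TN1, at 16.5 CPM against 6.62 in TN2, 3.99 in TN3, against 4.67 in HC. Col27a1 had only 5, 14, 21 and 4 UMIs in TN1, TN2, TN3 and HC. The remaining fibrillar genes, Col11a1, Col5a1 and Col24a1, had 27 to 2226 UMIs over the 4 areas, and HC lay within the range of the TN areas for each of them.

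Type IV collagen is built mostly of Col4a1 and Col4a2 chains, whose genes lie head to head and are read in opposite directions. In RefSeq's promoter table (build GRCr8) their starts are 76 bases apart on chromosome 16. The whole interval is shown because both genes share it, on the strand of Col4a1 and with its GC box in capitals (GGGCGG, or CCGCCC on the other strand), at chr16:84885521-84885596.
Col4a1 Col4a2 interval: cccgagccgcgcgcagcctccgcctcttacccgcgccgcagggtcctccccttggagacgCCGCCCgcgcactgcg
In the 76 bases before the start of every gene in that table, 19.3% of 27457 promoters hold a GC box. No CCAAT box (CCAAT, or ATTGG on the other strand), TATA box (TATAAA) or AP-1 site (TGANTCA) was matched in the interval, on either strand.

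The counts of this gene pair were far apart. Col4a1 gave 4700 UMIs in TN1, 11693 in TN2, 10721 in TN3, against 7274 in HC, whereas Col4a2 gave 26, 27, 38 and 17. That is 181 to 433 Col4a1 UMIs per Col4a2 UMI, a gap present in all 4 areas, and the part played by the annotated 3′ end of Col4a2 was not tested. On the TMM scale Col4a1 measured 197.6 CPM in TN1, 290.9 in TN2, 334.1 in TN3, against 183.6 in HC. TN1 stood barely above HC, and the log2 fold change was 0.58 (SE 0.37). Col4a5, a chain of specialised basement membranes, measured 5.63 CPM in TN1, 9.28 in TN2, 9.97 in TN3, against 2.40 in HC, so each TN area was at least 2-fold above HC. Its log2 fold change was 1.79 (SE 0.50), with an adjusted p of 0.556 (edgeR quasi-likelihood test with Benjamini-Hochberg adjustment). Col4a4 was level across areas at 6.79 to 7.82 CPM. Col4a3 and Col4a6, with 14 and 2 UMIs in all, did not pass the filter on low counts.

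The other types held the genes that differed most between areas. Multiplexins are proteoglycan-like collagens of basement membrane zones, and Col18a1, the source of endostatin, measured 64.8 CPM in TN1, 651.2 in TN2, 589.6 in TN3, against 48.7 in HC. TN2 and TN3 were 13.4-fold and 12.1-fold above HC, and TN1 was 1.33-fold above it. Col15a1, the second multiplexin, measured 105.9 CPM in TN1, 208.3 in TN2, 192.7 in TN3, against 71.8 in HC, a narrower range with every TN area above HC.

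Collagens of the FACIT group lie on the surface of fibrils and tie them to other matrix. Col16a1 measured 78.8 CPM in TN1, 550.8 in TN2, 465.9 in TN3, against 88.6 in HC, with TN1 just below HC. Col12a1, known from tendon and other tissue under tension, measured 20.6 CPM in TN1, 59.7 in TN2, 60.2 in TN3, against 13.9 in HC. Col9a2, a cartilage FACIT, measured 14.6 CPM in TN1, 32.9 in TN2, 31.0 in TN3, against 10.6 in HC. Both had every TN area above HC. Col20a1 measured 1.51 CPM in TN1, 21.5 in TN2, 19.1 in TN3, against 1.09 in HC. Col9a1 ran the other way, at 8.24 CPM in TN1 against 0.473 in TN2, 1.68 in TN3, against 3.00 in HC.

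Col6a2, a chain of the beaded microfilaments of type VI collagen, measured 42.0 CPM in TN1, 232.1 in TN2, 217.3 in TN3, against 74.4 in HC. Col8a2, of the short-chain network collagens, measured 24.1 CPM in TN1, 57.8 in TN2, 73.8 in TN3, against 27.4 in HC. For both genes TN1 lay below HC. Col7a1, which forms the anchoring fibrils of skin, had the widest gap of any collagen, with 28 UMIs in TN1, 1685 in TN2, 1061 in TN3, against 36 in HC. On the TMM scale that was 1.18, 41.9, 33.1 and 0.909 CPM. Col13a1, a transmembrane collagen, measured 1.18 CPM in TN1, 5.80 in TN2, 10.0 in TN3, against 0.757 in HC. Col28a1, known from the surface of Schwann cells, was sparse, with 25, 63, 52 and 16 UMIs, and each TN area was at least 2-fold above HC.

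Of the 42 genes, 33 matched an entry of the RefSeq promoter table (GRCr8), and those of Col18a1, Col16a1, Col7a1 and Col20a1 are shown because these 4 genes had the largest log2 ratio of TN2 to HC with 1 CPM added to both, a choice made after their values were seen. Each run is the 150 bases before the annotated start, 5′ to 3′ on the gene's own strand, which is the plus strand for all 4, with GC boxes and CCAAT boxes of either strand in capitals. They lie at chr20:11473495-11473644, chr5:147672946-147673095, chr8:118483214-118483363 and chr3:188479352-188479501, in the order printed.
Col18a1: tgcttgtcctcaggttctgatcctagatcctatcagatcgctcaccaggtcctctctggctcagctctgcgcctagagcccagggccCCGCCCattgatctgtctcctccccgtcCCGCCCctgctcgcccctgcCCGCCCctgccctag
Col16a1: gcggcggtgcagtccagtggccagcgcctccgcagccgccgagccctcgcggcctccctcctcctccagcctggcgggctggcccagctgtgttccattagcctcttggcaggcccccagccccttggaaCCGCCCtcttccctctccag
Col7a1: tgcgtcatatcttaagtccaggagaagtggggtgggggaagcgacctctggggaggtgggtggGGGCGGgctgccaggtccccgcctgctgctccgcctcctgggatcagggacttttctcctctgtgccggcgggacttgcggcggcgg
Col20a1: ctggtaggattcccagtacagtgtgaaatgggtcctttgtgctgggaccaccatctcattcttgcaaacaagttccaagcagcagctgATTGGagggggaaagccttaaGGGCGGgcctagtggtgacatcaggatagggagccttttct
All 4 runs hold at least 1 GC box, with 3 in that of Col18a1, and 27.8% of all 27457 promoters hold one in the same window. Over the full 250 bases before the start, a GC box was found in 19 of 33 collagen promoters and in 32.4% of all promoters. A CCAAT box was found in 10 of 33 collagen promoters and in 34.3% of all. An AP-1 site (TGANTCA) occurred in 1 of 33 collagen promoters and in 6.36% of all. A match is a stretch of letters and not a measured site.

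Whether TN differed from HC beyond the spread between areas was tested on sums over all spots, for all 14902 genes that passed the filter on low counts. Of the collagens, 34 passed, and the 8 that did not had at most 14 UMIs each (Col4a3, Col19a1, Col17a1, Col6a4, Col25a1, Col4a6, Col23a1 and Col10a1, the last 2 without a UMI). No collagen was called at an adjusted p of 0.05 by edgeR's quasi-likelihood test, against 0% of all genes in either direction. In simulated data for this comparison, 3.28% of genes with a log2 change of 1 were called, 38.1% at 2 and 71% at 3. A lack of calls therefore does not show a lack of difference. At an unadjusted p of 0.05, 5 collagens were higher in TN (Col3a1, Col15a1, Col5a2, Col4a5 and Col28a1), against 3.76% of all genes, and 0 were lower, against 4.77%. DESeq2 called 1 collagen higher, against 0.852% of all genes, and 0 lower, against 0.208%.

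By direction alone, 21 of 34 collagens had every TN area above HC, against 28.7% of all genes tested, and 1 had every TN area below, against 30.6%. At 2-fold or more in every TN area, 4 collagens were above HC (Col5a2, Col4a5, Col28a1 and Col27a1), against 4.17% of all genes, and 0 were below, against 1.54%. Area by area, 11 of 34 were at least 2-fold above HC in TN1 (11.8% of all genes), 17 in TN2 (13.7%) and 20 in TN3 (14.6%). Those in TN1 included Col27a1, Col24a1, Col6a5, Col28a1, Col4a2, Col6a6 and Col9a3, with only 5 to 33 UMIs there and 4 to 17 in HC. All collagens summed were 0.930-fold of HC in TN1. These sums include the blood and bone spots, which held 19.7% of collagen UMIs in HC and 2.54% in TN1. TN1 was the lowest of the TN areas for 25 of 34 collagens, against 42% of all genes, and the highest for 6, against 41.4%. Median log2 fold changes were 0.43 for 10 fibrillar genes, 0.88 for 4 type IV genes and 1.33 for 20 genes of other types, beside 0.06 for all genes tested.

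TN1 set the outcome of the test. Without it, 16 of 34 collagens were called higher in TN, against 8.07% of 14692 genes, and 0 were called lower, against 6.7%. These were Col3a1 and Col5a2 among fibrillar genes, Col4a5 among type IV genes, and Col18a1, Col15a1, Col16a1, Col12a1, Col9a2, Col20a1, Col6a1, Col6a2, Col7a1, Col8a1, Col8a2, Col13a1 and Col28a1. For Col18a1 the log2 fold change was then 3.67 (SE 0.22, adjusted p = 0.00942, edgeR quasi-likelihood test with Benjamini-Hochberg adjustment), against 3.16 (SE 1.44, adjusted p = 0.559) with all areas. For Col7a1 it was 5.36 (SE 0.31, adjusted p = 0.00942) against 4.80 (SE 2.18, adjusted p = 0.559), by the same test. Col1a1 was not called even then, at 0.91 (SE 0.23, adjusted p = 0.063, same test). In the fit without TN1 the spread came from TN2 and TN3 alone, since HC is 1 area. Its small adjusted p values thus rest on how alike TN2 and TN3 were, besides their distance from HC. TN1 had the fewest UMIs per spot and the highest mitochondrial share. Its central neuron region (defined below) had 425 spots, with 24.1% of its UMIs and 6.28% of its collagen UMIs. In TN2 that region had 131 spots, with 8.07% and 2.06%, and TN3 and HC had no spots of it. The part these traits play was not tested.

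**Figure D2:**
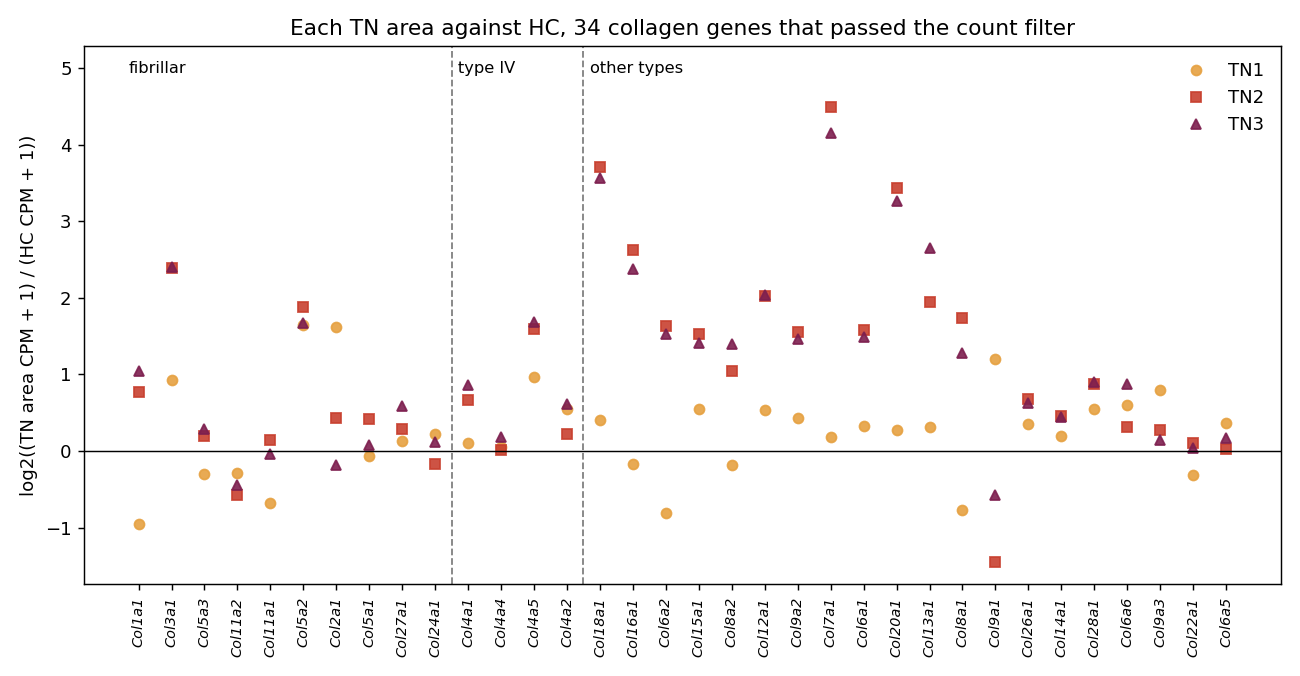
Log2 ratio of each TN area to HC, with 1 CPM added to both, for the 34 collagens that passed the filter, grouped by class and ordered by total UMIs within a class. Points of TN2 and TN3 lie above 0 for most genes and reach 4.49 for Col7a1 in TN2, while TN1 points lie closer to 0 for most genes, with that of Col1a1 at -0.96.

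The balance between Col1a1 and Col3a1 separated HC from every TN area. There were 1.15 Col1a1 UMIs per Col3a1 UMI in TN1, 1.39 in TN2, 1.65 in TN3, against 4.26 in HC. The TN areas lay close together (1.40 ± 0.25, mean ± SD, n = 3), and with 1 HC area no exact permutation test can go below a one-sided p of 0.25. Blood and bone spots of HC were rich in Col1a1, and without them the HC ratio was 3.29, against 1.14 to 1.64 in the TN areas. Within the sensory neuron region (defined below) the ratio was 1.22 in TN1, 1.47 in TN2, 1.74 in TN3, against 3.51 in HC. In the central myelin region it was 0.987, 1.61, 1.60 and 4.19 in the same order. Both regions thus kept HC above all TN areas, as did unnamed cluster 6, with 2.80 in HC and 1.32 to 1.80 in the TN areas.

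The multiplexin pair gave another split. There were 0.611 Col18a1 UMIs per Col15a1 UMI in TN1, 3.13 in TN2, 3.06 in TN3, against 0.679 in HC. TN1 thus sat with HC, and Col18a1 outnumbered Col15a1 in TN2 and TN3 alone. In the sensory neuron region the values were 0.758, 2.49, 1.87 and 0.734 in TN1, TN2, TN3 and HC. In the peripheral myelin region TN1 had 0.405 and TN3 2.61.

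**Figure D3:**
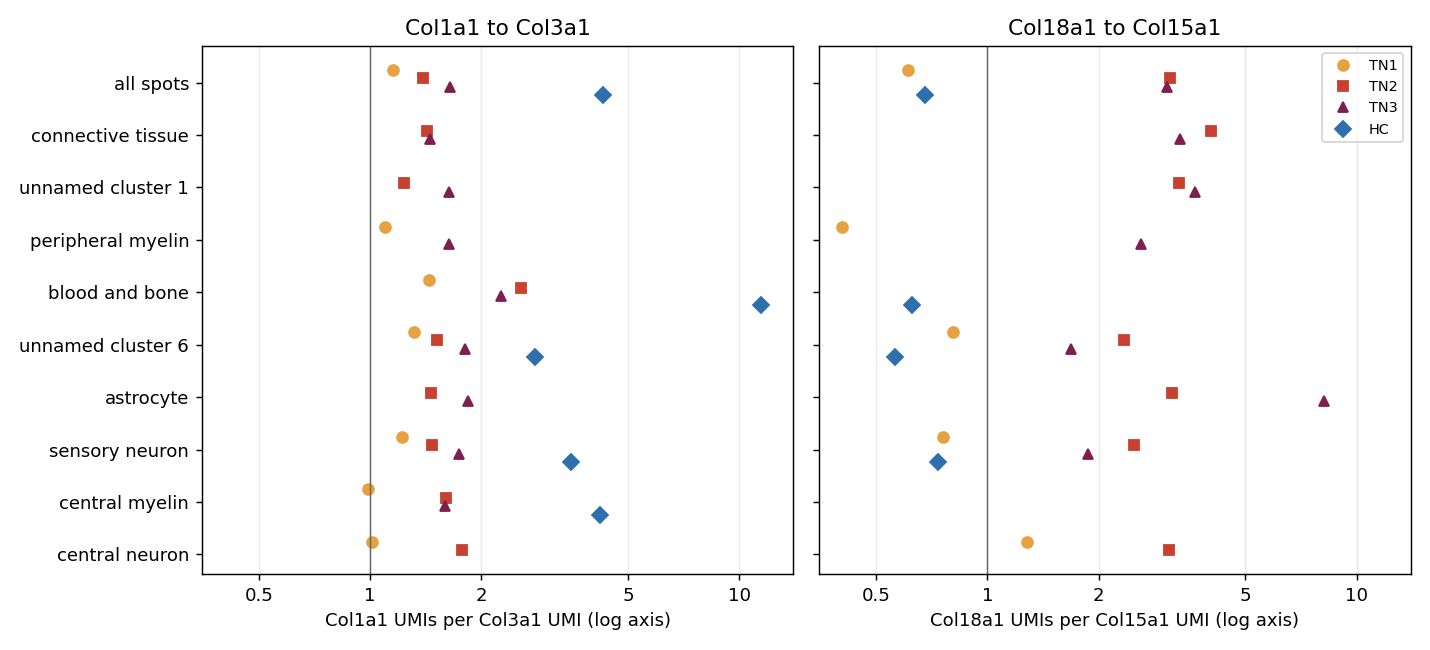
Ratio of Col1a1 to Col3a1 UMIs (left) and of Col18a1 to Col15a1 UMIs (right) on log axes, over all spots and within each region with at least 20 spots and 100 UMIs of the second gene, 1 point per capture area. HC is the highest point of every row it appears in on the left, and TN2 and TN3 lie above 1 wherever they are shown on the right.

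Spots were grouped by expression into 10 clusters without use of the collagen genes, and clusters were named from marker lists. Connective tissue spots (1 in TN1, 106 in TN2, 51 in TN3, against 0 in HC) were led by Lbp, Mgp, Smoc2 and Fn1. Unnamed cluster 1 (1, 346, 470 and 0 spots) was led by Gpr83, Thbs2 and Cthrc1, of which Thbs2 and Cthrc1 code for matrix proteins. Its highest marker list scores were peripheral myelin (1.07) and macrophage (0.902), too close together for a name. It is therefore not a connective tissue region by its markers, and the peripheral myelin region kept only 12 spots in TN2. Connective tissue and unnamed cluster 1 were both nearly limited to TN2 and TN3. Together they held 63.3% of collagen UMIs in TN2 and 53.9% in TN3, against 41.6% and 36.0% of all UMIs there. A difference in the tissue that was sectioned and a difference in the nerve cannot be told apart here.

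Mean collagen levels were highest in connective tissue and lowest in the central myelin and central neuron regions. But the means cover different areas, with connective tissue and unnamed cluster 1 from TN2 and TN3 and peripheral myelin from TN1 and TN3. All collagens together gave 11995 ± 3036 CPM in connective tissue (mean ± SD, n = 2 areas), 6939 ± 109 in unnamed cluster 1 (n = 2) and 5588 ± 232 in the peripheral myelin region (n = 2). They gave 3977 ± 2709 in blood and bone, 3227 ± 1132 in unnamed cluster 6 and 2246 ± 1123 in the sensory neuron region (n = 4 each), with 2902 ± 93.2 in the astrocyte region (n = 2). The lowest levels were 1188 ± 635 in central myelin (n = 4) and 879.9 ± 628 in the central neuron region (n = 2). Means of neighbours from blood and bone downward lay within their spread between areas, but that spread is shared by the regions of an area. Within each of the 4 areas, unnamed cluster 6 was above the sensory neuron region, and that region was above central myelin. The sensory neuron region gave 1172 CPM in TN1, 3566 in TN2, 2779 in TN3, against 1467 in HC, and central myelin 565.2, 1820, 1643 and 724.1. Blood and bone was above unnamed cluster 6 in TN2 and HC only. Within TN2 the order was not the same, with 9848 CPM in connective tissue, 7774 in blood and bone (65 spots) and 7016 in unnamed cluster 1. Unnamed cluster 6 mixed peripheral myelin and sensory neuron markers, and its leading genes included Sfrp5 and Mrap.

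**Figure D4:**
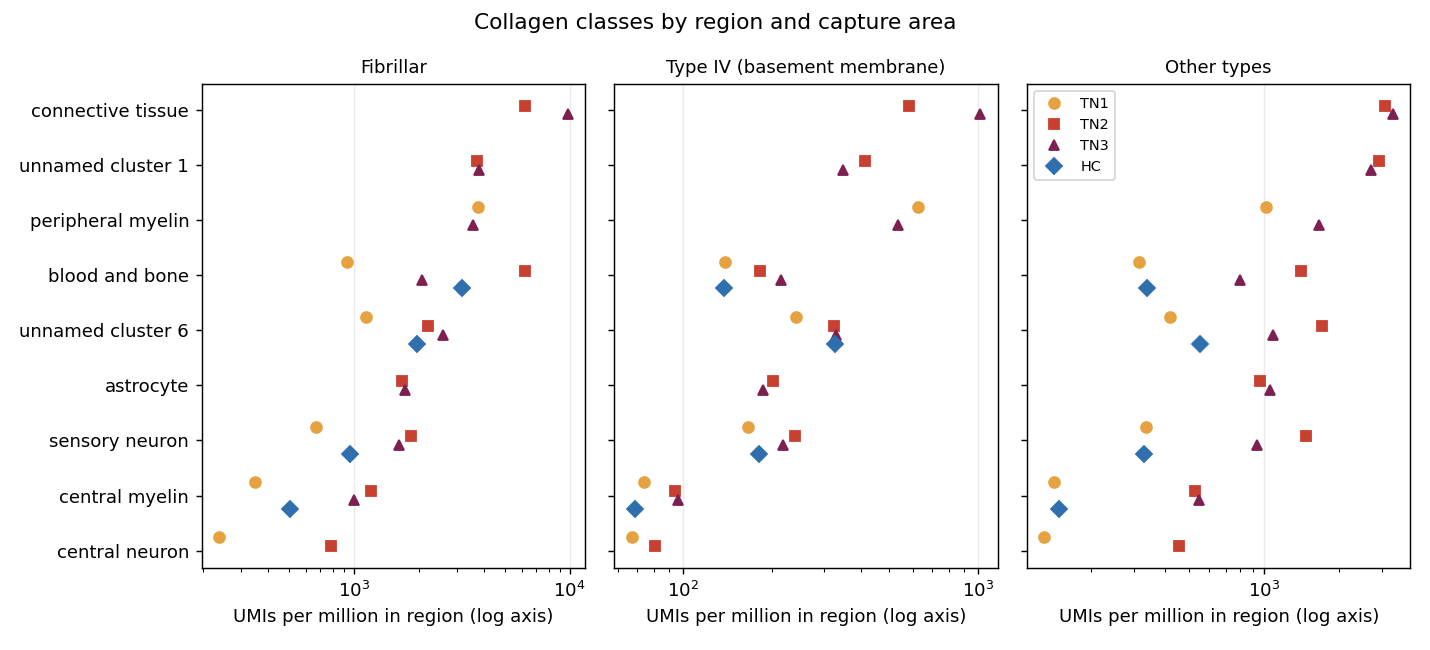
Summed CPM of fibrillar, type IV and other collagens (log axes) in each region with at least 20 spots in an area, 1 point per area, with regions ordered by total collagen. By mean over areas, connective tissue is highest and central myelin and central neuron lowest in each panel. Single points overlap, as type IV in peripheral myelin of TN1 (627.8 CPM) lies above connective tissue of TN2 (581.9). In the panel of other types TN2 and TN3 exceed TN1 and HC in every region that they share.

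Among 29 members with at least 100 UMIs, 16 were highest in connective tissue, 6 in peripheral myelin, 3 in blood and bone, 2 in unnamed cluster 1, 1 in unnamed cluster 6 and 1 in the astrocyte region. Connective tissue means come from TN2 and TN3 alone, and the same count over all genes was not made. Some peaks were near ties, as for Col15a1, at 314.8 ± 38.0 CPM in connective tissue and 302.4 ± 131.6 in peripheral myelin. Col1a1 averaged 4530 ± 1541 CPM in connective tissue (SD, n = 2) and 2152 ± 1659 in blood and bone (n = 4). Col18a1 was nearly as high in unnamed cluster 1 as in connective tissue, at 1042 ± 49.3 and 1148 ± 18.6 CPM (n = 2 each), and Col16a1 was higher in unnamed cluster 1, at 788.6 ± 43.0 against 592.1 ± 2.80. Col4a1 averaged 753.6 ± 303 CPM in connective tissue and 560.7 ± 61.4 in peripheral myelin. Col5a3 was highest in peripheral myelin, at 445.8 ± 15.2 CPM, whose leading genes include the compact myelin gene Pmp22. Col8a2, Col2a1, Col9a1, Col14a1 and Col6a6 were also highest there. The peripheral myelin peaks of Col2a1 and Col9a1 came from TN1, with 71.3 and 38.5 CPM there against 6.60 and 4.20 in TN3.

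Col11a2 had a pattern of its own. It averaged 54.9 ± 21.2 CPM in blood and bone and 50.1 ± 9.13 in central myelin (n = 4 each), the region with the second lowest collagen total. Col4a4 was highest in the astrocyte region, at 12.9 ± 3.30 CPM (n = 2).

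**Figure D5:**
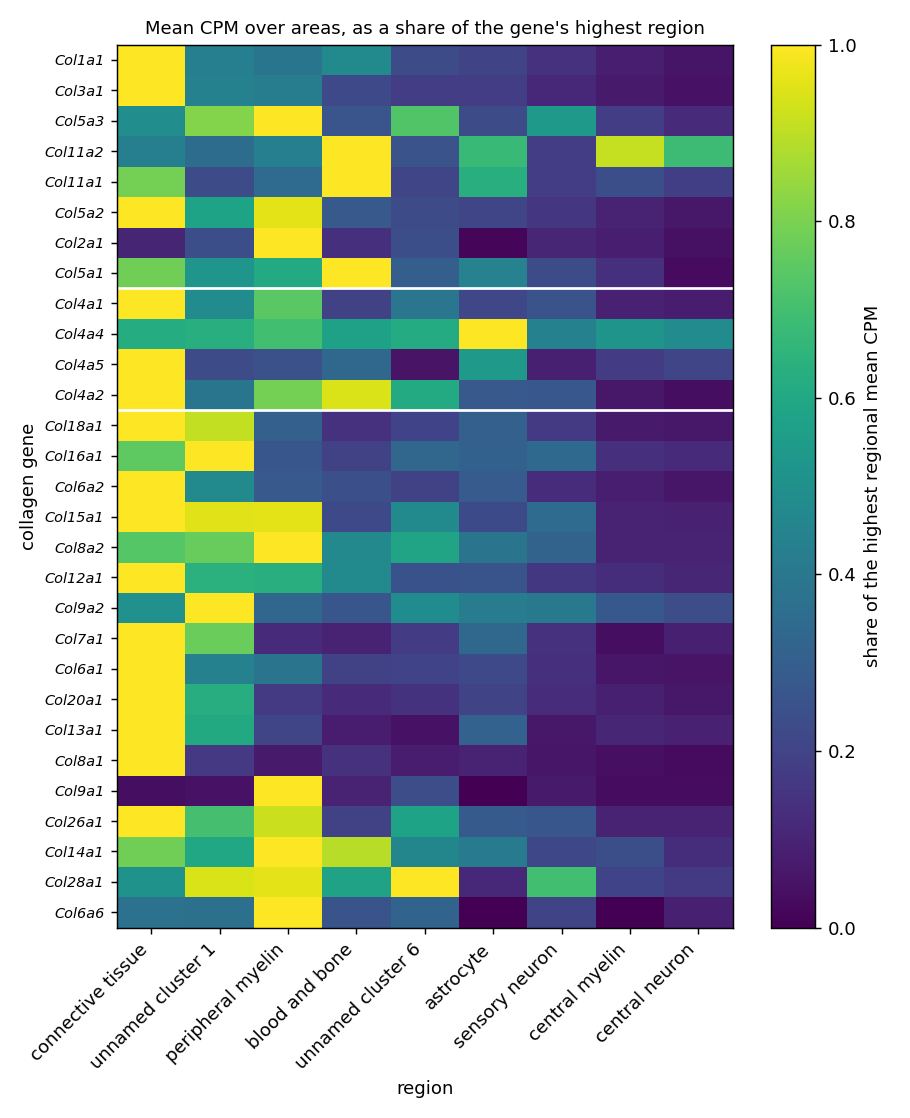
Mean CPM over areas of 29 collagens in 9 regions, each divided by the gene's highest regional mean (colour, 0 to 1), with white lines between fibrillar, type IV and other genes. Most rows peak in connective tissue and in neighbouring columns, while Col5a3, Col2a1, Col9a1 and Col6a6 peak in peripheral myelin and Col11a2 in blood and bone.

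The 1% of spots with most Col1a1 UMIs held 7.72% of its UMIs in TN1, 8.84% in TN2, 11.4% in TN3, against 12.3% in HC. These spots were picked by the same UMIs, so a raised share is partly built in. For Col3a1 the shares were 7.49%, 7.24%, 11.1% and 6.95% in the same order. In HC 11 of the 21 top spots of Col1a1 were blood and bone spots, against 1 of 16 in TN1 and 0 in TN2 and TN3. The osteoblast gene Bglap reached 1452 CPM in the top spots of HC and 134.5 in the rest of it. In the TN areas it measured 117.9 against 47.4 CPM in TN1, 554.6 against 28.2 in TN2, and 67.8 against 34.9 in TN3. Over all spots the bone-forming cell markers did not all point the same way. Bglap and Ibsp were highest in HC, but Runx2 (1.55 CPM) and Spp1 (586.4) were lowest there. The 10 markers summed to 1125 CPM in TN1, 1544 in TN2, 1196 in TN3, against 796.8 in HC. Most of each sum was Spp1, at 1041, 1420, 1101 and 586.4 CPM in the same order, so the sum mainly follows that gene. Bglap measured 48.1, 36.1, 35.5 and 147.5 CPM, and Ibsp 3.10, 8.80, 4.84 and 14.1. In the richest HC spot, 1446 of 10778 UMIs were Col1a1, together with 281 Bglap UMIs and 5 Spp1 UMIs. Outside the top 1% of spots in each area, Col1a1 measured 405.6 CPM in TN1, 1372 in TN2, 1552 in TN3, against 710.4 in HC, so the order of areas was the same.

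Within regions that all areas shared, TN and HC were compared again. No collagen was called in the sensory neuron region (32 tested, against 0% of all genes), unnamed cluster 6 (23 tested, against 0.0463% higher and 0% lower), blood and bone (19 tested, against 0% higher and 0.0361% lower) or central myelin (17 tested, against 0%), all by edgeR's quasi-likelihood test. At an unadjusted p of 0.05 in the same test, 4 collagens were higher in the sensory neuron region (4.63% of all genes) and 0 lower (4.48%). In unnamed cluster 6, 3 were higher (3.94%) and 1 lower (3.95%). In blood and bone 3 were higher (2.01%) and 1 lower (1.75%), and in central myelin 3 were higher (1.95%) and 0 lower (1.19%). By direction alone, every TN area was above HC for 14 of 32 collagens in the sensory neuron region (27.5% of all genes) and below it for 2 (29.5%). The counts were 8 above (21.1%) and 2 below (21.5%) of 19 in blood and bone, and 8 above (20.5%) and 1 below (21.2%) of 17 in central myelin. In unnamed cluster 6 they were 5 above (25.1%) and 5 below (25.9%) of 23, close to the shares of all genes, with a fibrillar median log2 fold change of -0.23. In the sensory neuron region Col18a1 measured 55.9 CPM in TN1, 425.3 in TN2, 238.3 in TN3, against 49.6 in HC, with a log2 fold change of 2.28 (SE 1.06). In central myelin it measured 23.97, 109.4, 193.4 and 16.9 CPM in the same order. In both regions TN2 and TN3 were above TN1 and HC for this gene. Col16a1 showed the same order in the sensory neuron region, at 106.0 CPM in TN1, 518.9 in TN2, 346.8 in TN3, against 95.03 in HC. Spread of RNA between neighbouring spots was not tested.

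The sensory neuron region joined clusters that differed between areas. Cluster 4, led by Csrp3 and by Gal, a neuropeptide gene known to be induced by nerve injury, had 56, 327 and 67 spots in TN1, TN2 and TN3 and 0 in HC, and cluster 8 had 148, 40, 98 and 673 spots in TN1, TN2, TN3 and HC. In cluster 8 alone, a comparison added after the data were seen, Col18a1 measured 50.2 CPM in TN1, 249.3 in TN2, 176.2 in TN3, against 49.2 in HC, with a log2 fold change of 1.66 (SE 0.75). Of 24 tested, 13 had a positive log2 fold change and 11 a negative one, near the share of all genes (6039 of 11372 positive). In the joined region 26 of 32 were positive and 6 negative, beside 6780 of 12844 genes positive. The median was 0.28 in cluster 8 against 0.83 in the joined region, over different sets of tested collagens. In cluster 8, every TN area was above HC for 8 (25.8% of all genes) and below it for 4 (27.7%). The medians were -0.18 for 8 fibrillar genes, -0.12 for 3 type IV genes and 0.85 for 13 genes of other types. Without TN1, 10 of 31 collagens were called higher in the joined region by edgeR's quasi-likelihood test, against 4.34% of all genes, and 0 lower, against 2.2%. They were Col3a1, Col5a2, Col18a1, Col15a1, Col16a1, Col12a1, Col9a2, Col20a1, Col7a1 and Col8a1. For Col1a1, HC lay inside the TN range there, at 242.0 CPM in TN1, 888.3 in TN2, 857.2 in TN3, against 558.7 in HC. The same held for Col4a1, at 156.0, 223.1, 207.7 and 180.2 CPM.

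The genes that make, cross-link and break down collagen were examined as a fixed list of 68, of which 64 were found and 56 passed the filter. By edgeR's quasi-likelihood test 0 of 56 were called with all areas, and without TN1 25 were called higher, against 8.07% of all genes, and 0 lower, against 6.7%. All TN areas were above HC for 25 of 56 and below it for 3, against 28.7% and 30.6% of all genes, which are also the shares to set beside the counts by role. Of the enzymes and chaperones that modify and fold chains, 7 of 16 had every TN area above HC and 1 below. Serpinh1, the collagen chaperone HSP47, measured 221.9 CPM in TN1, 539.4 in TN2, 622.1 in TN3, against 183.9 in HC. Ppib, a folding enzyme of the endoplasmic reticulum, spanned a narrower range, from 264.4 CPM in HC to 387.5 in TN3.

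For secretion and propeptide removal, 1 of 6 was above HC in every TN area and 1 below, and Bmp1, which cuts the C-terminal propeptide, measured 26.9 CPM in TN1, 131.6 in TN2, 131.5 in TN3, against 32.3 in HC. The cross-linking enzyme Loxl1 measured 12.8, 115.2, 83.8 and 20.9 CPM in the same order, and 1 of 4 enzymes of its group was above HC in every TN area. Among proteoglycans and glycoproteins of the fibril surface, 7 of 11 were above HC in every TN area and 0 below. Dcn measured 651.2 CPM in TN1, 980.7 in TN2, 1013.7 in TN3, against 232.1 in HC, and Thbs2 measured 20.9, 229.7, 228.5 and 10.2 in the same order.

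The breakdown list included the inhibitors Timp1, Timp2 and Timp3. Of its 12 genes, 7 were above HC in every TN area, Timp1 and Timp3 among them, and 0 were below. Timp1, an inhibitor of matrix metalloproteinases, measured 155.7 CPM in TN1, 490.0 in TN2, 533.3 in TN3, against 108.4 in HC, while Timp2 ranged from 328.0 to 596.8 CPM with HC inside the TN range. Fap, a fibroblast protease, measured 2.57 CPM in TN1, 5.45 in TN2, 3.02 in TN3, against 0.227 in HC, and Mmp14 measured 9.63, 8.86, 10.2 and 3.69. Of the collagen receptors, 2 of 7 were above HC in every TN area, near the share of all genes, and 1, Itga11, was below, at 4.79, 3.76, 2.93 and 7.07 CPM.

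Likeness between collagens across spots of an area was low for most pairs. For 22 members with at least 500 UMIs, the mean Pearson r over the 4 areas had a median of 0.08 over 231 pairs, and 33 pairs were above 0.3. Among members with at least as many UMIs as Col15a1, mean r was 0.26 to 0.64. The 22 members reached down to 586 UMIs over all areas (Col8a1), and the part of low counts in the low r was not tested. Col1a1 and Col3a1 were most alike, with a mean r of 0.64 and values of 0.82 in TN1, 0.76 in TN2, 0.60 in TN3, against 0.40 in HC. For the basement membrane gene Col4a1 the mean r was 0.53 with Col3a1, 0.51 with Col5a3 and 0.48 with Col1a1. Spots of an area share a library and differ in depth, so these are descriptions, and with each spot thinned to 2000 UMIs the values were 0.40 for Col1a1 and Col3a1, 0.25 for Col4a1 and Col3a1, 0.24 for Col4a1 and Col1a1, and 0.14 for Col4a1 and Col5a3, which then came after 4 other collagens.

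Of 9531 other genes, those most like the summed fibrillar UMIs included Sparc (mean r 0.70), Dcn (0.63), Pmp22 (0.60) and S100a6 (0.60). Sparc codes for a collagen-binding matrix protein and Dcn for the fibril proteoglycan decorin. Those most like the summed type IV UMIs included Pmp22 (0.61), S100a6 (0.60), Prx (0.58) and Crip1 (0.57), of which Pmp22 and Prx are genes of myelinating Schwann cells.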

How the data were processed

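Raw UMI counts per gene and spot were made by the authors with Space Ranger 1.2.0 and deposited without normalization, with all 4 areas in 1 matrix. STAR is named in the submitters' processing notes, and the genome build is not given in the sources used here. Barcode suffixes 1 to 3 were read as TN1 to TN3 and 4 as HC, in the order of the series description.

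Area sums of the counts were normalized by TMM and filtered with filterByExpr, and TN was compared with HC by the quasi-likelihood test of edgeR 4.0.16 in R 4.3.3 (2 residual degrees of freedom, Benjamini-Hochberg adjustment at 0.05). The SE given with a log2 fold change was not fitted by edgeR. It is the size of that change divided by the square root of the quasi-likelihood F statistic. DESeq2 1.42.0 was an alternative. HC has no replicate, so its spread was assumed to be that of the TN areas. Regions came from SCTransform (sctransform 0.4.2, Seurat 5.3.0), 30 principal components and K-means with 10 clusters on 16052 genes, collagens left out. A region was tested where every area had at least 20 of its spots. Each TN area was left out in turn as an alternative. Members singled out were the 12 with most UMIs and those at least 2-fold on 1 side of HC in every TN area. Col7a1, Col20a1, Col13a1, Col2a1, Col9a1 and the gene pairs set as ratios were chosen after their values were seen. The members, lists and markers were chosen with earlier results of these data known. The tests were checked on simulated data, in which most genes with a log2 change of 1 were missed (3.28% called). A gene among those most like the collagen sums is not reported here.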

Additional observations from a re-analysis of the deposited data

Results flagged for a closer look

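Col4a1 pointed in opposite directions in different regions. In blood and bone every TN area was above HC (log2 fold change 0.31, SE 0.42), and in unnamed cluster 6 every TN area was below HC (-0.20, SE 0.23), a difference of 0.51. Central myelin (0.35, SE 0.26) differed from unnamed cluster 6 in the same way, by 0.55. In blood and bone TN1 and HC were nearly equal, at 126.0 and 125.8 CPM, and TN1 fell below HC with DESeq2 size factors (124.9 and 125.3), with no filter on low counts (122.4 and 129.5) and with 8 clusters, where TN2 was below as well (114.1 and 147.1 against 149.6). Whether every TN area was above HC there thus depended on these settings. Neither difference was tested.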

How the results depend on the processing

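HC is 1 area, and the 13 members under 100 UMIs rest on few counts. Leaving out 1 TN area each gave 0 to 16 collagens called, the 16 without TN1, and 0 to 25 pathway genes. Without TN1, 8.07% of all genes were called higher and 6.7% lower. DESeq2 called 1 collagen and 4 pathway genes, against 0.852% of all genes higher and 0.208% lower. Collagens with every TN area below HC numbered 2 of 40 with no filter on low counts (5795 of 19895 genes). They numbered 2 of 34 without the connective tissue region (4487 of 14720 genes) and 0 of 34 without blood and bone (4555 of 14816). Without connective tissue and cluster 1, an alternative chosen after seeing the data, they numbered 2 of 32 (4135 of 14157). They numbered 2 of 34 without TN1 (6045 of 14692), 2 without TN2 (4803 of 14580) and 1 without TN3 (4867 of 14821). The fibrillar median of 0.43 was 0.86 without blood and bone, 0.0197 without connective tissue and cluster 1 (8 genes tested instead of 10), and 0.25 to 0.63 when 1 TN area was left out. Without connective tissue and cluster 1 the median was 0.68 for type IV and 0.93 for other types, against 0.88 and 1.33 over all spots. Within regions, no filter gave 1 higher call of 36 in blood and bone (0.195% of all genes) and 4 of 36 in unnamed cluster 6 (0.732%). Leaving out 1 TN area gave 0 to 1 in blood and bone (1 of 16 without TN2, 0.199% of all genes) and 0 to 3 in central myelin (3 of 17 without TN3, 0.599%). In the sensory neuron region it gave 0 to 10 (10 of 31 without TN1, 4.34%). With 12 clusters, type IV means were 99.1 CPM in central myelin and 504.5 in peripheral myelin, and the connective tissue shares of collagen UMIs were 22.4% in TN2 and 10.6% in TN3. No cluster was named connective tissue with 8 clusters or with log-normalised clustering. Values of that region therefore rest on the clusterings with 10 and 12 clusters. With 8 clusters, peripheral myelin means were 3343 CPM for fibrillar and 499.2 for type IV. Log-normalised clustering gave a type IV mean of 130.3 CPM in blood and bone. Thinning gave the mean r of 0.40 and 0.14 stated in the report. Col5a3 gave -0.0216 (without TN3) to 0.242 (without TN1) when 1 TN area was left out and -0.00284 without connective tissue and cluster 1, and the cause of these changes was not tested. Of 175 values of 16 named genes under alternatives, 173 kept their direction. No paired analysis was possible because HC is 1 area whose label carries no replicate number, so that fewer than 2 pairs could be formed.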
